A study of Mus musculus with 12 samples.

Results

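The early transcriptional response of bone marrow-derived macrophages (BMDMs) to fenoterol was measured by comparing cells exposed for 1 h to 1 μM fenoterol with untreated cells. Fenoterol is a synthetic agonist of the beta2-adrenergic receptor (B2AR). The comparison uses 8 of the 12 libraries of the series, 4 untreated and 4 from cells treated for 1 h, chosen by their labels. Marrow from femur and tibia of C57Bl/6J mice was differentiated in RPMI with foetal calf serum and L929 cell-conditioned medium, plated overnight, and given fenoterol without a change of medium. Each of 4 mice gave 1 library to each group, and the methods describe the mice as adult males. All groups therefore share the strain, the medium and the conditioned medium, and untreated wells are the controls. No vehicle is named for them. The remaining 4 libraries, from cells treated for 4 h, entered the filter on low counts, the scaling and the estimate of the spread between replicates.

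B2AR is coupled to the stimulatory G protein Gs, which activates adenylyl cyclases. The cyclic AMP (cAMP) they make releases the catalytic subunits of protein kinase A (PKA), which phosphorylate cAMP-responsive element-binding protein (CREB) and its relatives on cAMP-responsive elements (CREs) near gene starts. Many genes switched on by this route encode proteins that end the signal, such as phosphodiesterases that degrade cAMP, inhibitory CREB family members and regulators of G protein signaling. In macrophages, cAMP is known to restrain the production of several inflammatory mediators.

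Total counts per library were 14580533 to 22580692 in untreated BMDMs and 18288911 to 20549801 after 1 h. All 10 macrophage markers examined were tested, and their summed level was 830802 to 868685 normalized counts in untreated libraries and 819666 to 948714 after fenoterol. Of these markers 2 passed the test, the lipopolysaccharide co-receptor gene *Cd14*, which rose by 2.39 ± 0.08 on the log2 scale (SE, adjusted p = 3.45e-11), and *Mertk*, a receptor for the uptake of apoptotic cells, which fell by 0.20 ± 0.05 (adjusted p = 0.0153). The call of *Mertk* was lost without the untreated library of mouse 2 (adjusted p = 0.0546), the 1 h library of mouse 1 (0.0519) or that of mouse 3 (0.0522). Among the other 8, the receptor for macrophage colony-stimulating factor, *Csf1r*, had a log2 fold change of -0.09 ± 0.09 (SE, adjusted p = 0.582), and the mannose receptor *Mrc1* one of 0.13 ± 0.07 (adjusted p = 0.215). Markers of other cells were far lower in sum, from 12.9 to 50.2 for mast cells and basophils, from 799 to 1479 for neutrophils and from 6203 to 11570 for B and plasma cells. Sums for dendritic cells were 225 to 502, for T and NK cells 556 to 787, for erythroid cells and megakaryocytes 38.1 to 73.2, and for fibroblasts and stroma 693 to 2059. The B and plasma cell sum was 8590 to 11570 untreated and 6203 to 8358 at 1 h, and the mast cell and basophil sum was 12.9 to 28.9 untreated and 44.2 to 50.2 at 1 h. The part of these cells in the results below was not tested. In such bulk samples fewer cells of a type and less RNA per cell cannot be told apart.

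Of 53379 genes counted, 12386 had enough counts to be tested. At 1 h, 1242 genes (10% of those tested) were higher and 1251 (10.1%) lower at an adjusted p under 0.05, 20.1% in all. Scaling by library size alone gave 949 higher and 1969 lower genes, so that the share of rises among changed genes was 49.8% with trimmed mean of M values (TMM) scaling and 32.5% without it. The larger changes were less dependent on scaling, and they were mostly rises. At least 2-fold changes comprised 368 rises (2.97% of genes tested) and 118 falls (0.953%), 3.92% in all, or 337 and 143 under library size alone. Of the rises, 157 were at least 4-fold and 68 at least 8-fold, against 12 and 4 of the falls. Untreated and 1 h libraries did not overlap for 360 of the 368 rises and 115 of the 118 falls, and all 118 falls were seen in each of the 4 mice. Over all genes tested, groups did not overlap for 11.3% higher and 11.8% lower at 1 h.

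Genes were then read by function, using 9 lists that together hold 1591 tested genes. The lists were drawn up with earlier results of these data known, so their shares and order are a description and not independent evidence. Members of a list that changed at least 2-fold made up 124 rises and 39 falls, 7.79% and 2.45% of those tested. The largest share of rises was found among signalling inhibitors and mRNA regulators, 28 of 162 (17.3%), followed by transcription factors with 27 of 247 (10.9%) and the cAMP pathway with 7 of 68 (10.3%). Kinases were closest to the background at this fold, with 12 rises of 313 (3.83%) and 3 falls (0.958%). Falls were most frequent among macrophage activation genes, 4 of 50 (8%), and in the cAMP pathway, 5 of 68 (7.35%). Median log2 fold changes of the lists lay between -0.04 and 0.09, against -0.0049 for all genes tested.

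**Figure D1:**
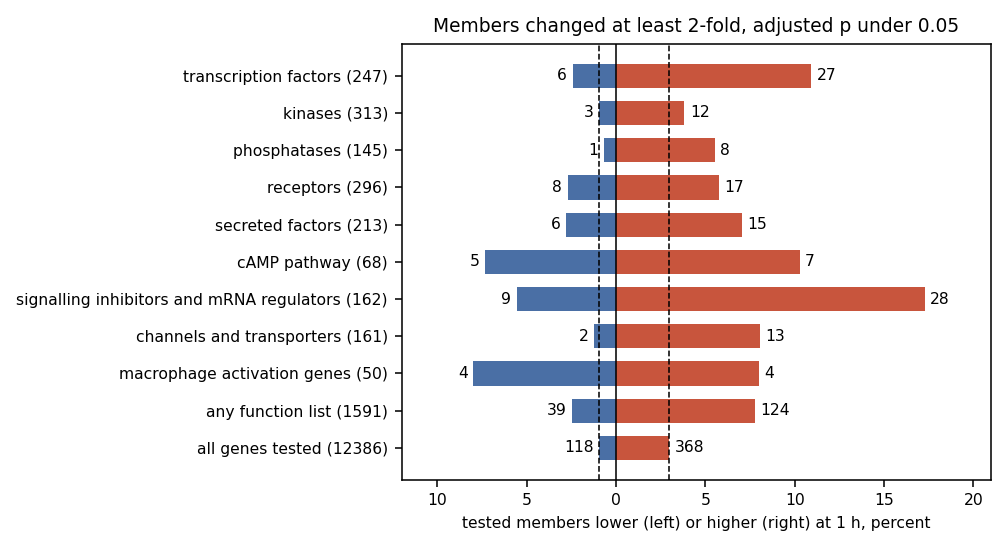
Percent of the tested members of each function list that were at least 2-fold lower (bars to the left) or higher (bars to the right) at 1 h with an adjusted p under 0.05, with the number of genes at the end of each bar and the number tested in parentheses. The lists were chosen with earlier results known, dashed lines mark the shares over all genes tested, 0.953% lower and 2.97% higher, and signalling inhibitors and mRNA regulators extend furthest to the right.

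The cAMP pathway was examined first, in the order in which the signal travels. At the level of Gs proteins and adenylyl cyclases none of 8 tested genes passed the test at an adjusted p under 0.05 in edgeR, 0 did so in DESeq2 or limma-voom and 0 had an unadjusted p under 0.05. Their log2 fold changes ranged from -0.13 to 0.23. The fits named here ignored the pairing by mouse, and this group was not counted in a fit with mouse as a block. *Gnas*, which encodes the Gs alpha subunit, read 14962, 14131, 14742 and 13302 normalized counts in untreated libraries of mice 1 to 4 and 15912, 14512, 15135 and 14203 after fenoterol. *Adcy7*, an adenylyl cyclase, had a log2 fold change of 0.05 ± 0.05. The PKA catalytic subunit genes *Prkaca* and *Prkacb* each had a log2 fold change of 0.03, with adjusted p of 0.729 and 0.713. Of the PKA regulatory subunit genes, *Prkar2a* rose from 1029, 1179, 1100 and 1077 to 2000, 2492, 1943 and 1947 (log2 fold change 0.94 ± 0.09, adjusted p = 1.81e-06). The groups were clearly separate, and mouse 2 was above the others at 1 h. *Prkar1a*, the other regulatory subunit gene to pass the test, rose by less (0.33 ± 0.05), and *Prkar2b* (0.15 ± 0.12) and *Prkar1b* (-0.68 ± 0.27) did not pass. *Akap10*, which encodes an anchoring protein that holds PKA at particular sites, fell from 2123, 1967, 2113 and 1862 to 892, 891, 974 and 840, and the anchoring protein gene *Akap13* fell by 0.40 on the log2 scale.

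At the level of CREB, the abundant activator *Creb1* had a log2 fold change of -0.15 ± 0.07 (adjusted p = 0.179), whereas *Crem*, a gene that gives rise to the inhibitor ICER from an internal promoter, rose 29.9-fold. *Crem* read 191, 186, 242 and 162 untreated and 6811, 6612, 5244 and 4770 at 1 h (log2 fold change 4.90 ± 0.15, adjusted p = 8.24e-12). The gene counts do not separate the transcripts of *Crem*. *Sik1*, a kinase that PKA inhibits and that keeps CREB coactivators out of the nucleus, rose to 4964, 5350, 4568 and 4780. Its untreated values were uneven, with 21.2 in mouse 3 against 184, 257 and 223 in mice 1, 2 and 4, and every 1 h value was above all of them. The coactivator genes differed in direction, with *Crtc3* higher (0.33 ± 0.09) and *Crtc1* (-0.35 ± 0.10) and *Ep300* (-0.52 ± 0.06) lower. The call for *Crtc1* was lost when mouse 1 or mouse 2 was left out of either group, with adjusted p between 0.0755 and 0.0826, and in a fit of the 2 groups alone (0.0542).

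Degradation of cAMP is the task of phosphodiesterases, of which 11 were tested and 2 rose at least 2-fold. *Pde4b* rose from 586, 701, 546 and 668 to 6813, 7271, 6112 and 5907 (10.5-fold), and its close relative *Pde4d* from 34.6, 38.9, 39.5 and 35.5 to 339, 374, 293 and 325 (8.95-fold). *Pde3b* rose 1.83-fold. A further family member, *Pde4a*, was slightly lower (log2 fold change -0.26 ± 0.07, adjusted p = 0.0158), a call lost without the 1 h library of mouse 1 (adjusted p = 0.0504) or of mouse 3 (0.0549) and without the filter on low counts (0.0593).

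RGS proteins, which speed the shut-off of G proteins, moved in both directions. *Rgs1* rose from 336, 267, 381 and 243 to 2829, 2362, 2455 and 1655, and *Rgs2*, already abundant, from 2818, 3182, 2924 and 2843 to 9414, 9176, 8283 and 7546. *Rgs3* went the other way, from 63.2, 95.1, 61.7 and 57.1 to 2.06, 13.5, 11.8 and 16.4 (log2 fold change -2.64 ± 0.37, adjusted p = 0.00011). None of these 3 genes had overlapping groups. *Rgs16* was lower at 1 h by 1.21 ± 0.33 on the log2 scale (adjusted p = 0.0188), but the call did not hold without mouse 2 in either group (adjusted p = 0.0604 and 0.0596). *Rgs14* and *Rgs19* fell by 0.44 and 0.31 on the log2 scale. Arrestin domain proteins, which act in the trafficking of receptors, split as well. *Arrdc3* rose from 1905, 2684, 2164 and 2851 to 5304, 6034, 4514 and 5047, while *Arrdc2* fell from 655, 828, 548 and 658 to 295, 346, 295 and 401. Of the whole pathway, 11 members (16.2%) were higher and 11 (16.2%) lower at an adjusted p under 0.05. The shares over all genes tested were 10% and 10.1%. In this pathway 7 rises and 5 falls were of at least 2-fold. The number of falls of that size was 3 when the untreated library of mouse 2 was left out, and scaling by library size alone gave 17 members lower at any size.

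**Figure D2:**
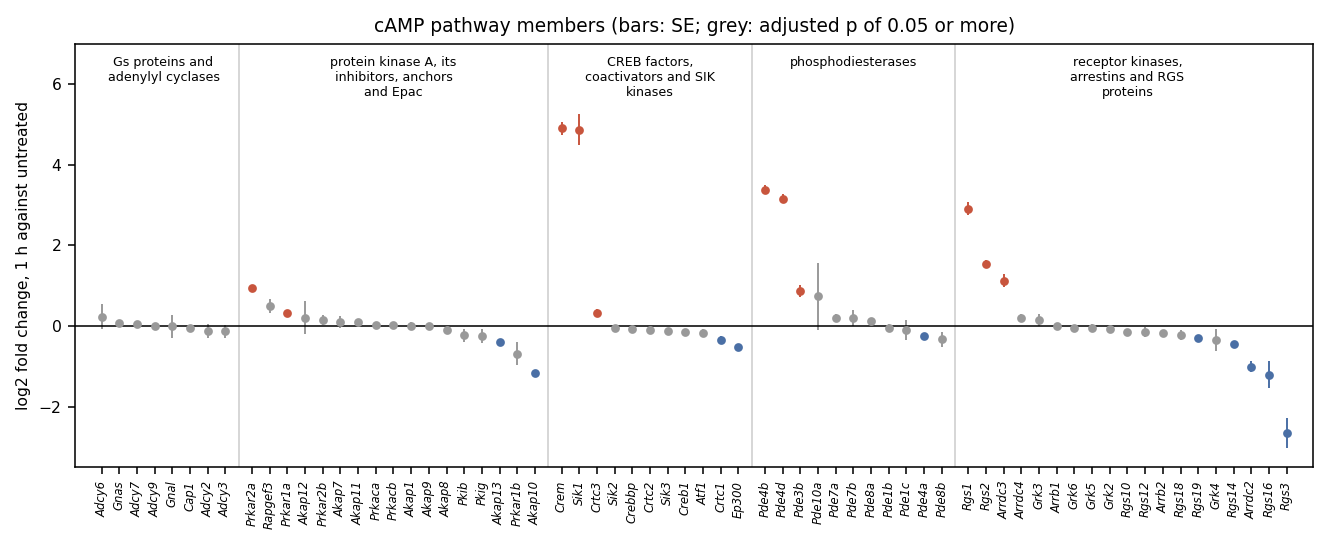
Log2 fold change at 1 h against untreated (vertical axis) of tested cAMP pathway genes from Gs proteins onward, ordered by role along the horizontal axis, with bars for the standard error and red, blue and grey for higher, lower and not passing an adjusted p of 0.05. *Crem*, *Sik1*, *Pde4b*, *Pde4d* and *Rgs1* stand highest, above a majority of members near 0.

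Transcription factors included the largest fitted rise of any gene tested. Of 247 tested, 51 (20.65%) were higher and 59 (23.9%) lower at an adjusted p under 0.05, against 10% and 10.1% of all genes tested. At least 2-fold changes were 27 rises and 6 falls. *Fosb*, an AP-1 subunit, read 12.1, 9.38, 12.5 and 5.38 untreated and 8974, 9978, 7881 and 7344 at 1 h (log2 fold change 9.71 ± 0.17, adjusted p = 6.36e-14). The orphan nuclear receptors *Nr4a3* (8.81 ± 0.29) and *Nr4a2* (8.47 ± 0.18) followed. *Nr4a3* was near the detection limit in untreated cells, at 3.46, 5.36, 0.965 and 1.08, and reached 1410, 1491, 1100 and 887. *Nr4a2* went from 11.2, 14.7, 10.6 and 7.54 to 4374, 4320, 3667 and 3238. The remaining member, *Nr4a1*, named here after its values were seen, rose from 94.4, 162, 135 and 132 to 4708, 4974, 4287 and 4541. In normalized counts, which are not corrected for gene length, *Nr4a3* stayed below the other NR4A genes at 1 h. For each of the 3 genes the untreated and 1 h groups were separate. *Runx3*, a Runt-domain factor, rose from 5.19, 0, 7.72 and 3.23 to 335, 268, 189 and 170. *Nfil3*, a bZIP repressor of the circadian output and immune genes, rose 21.2-fold from 333, 344, 292 and 260 to 6879, 7766, 5594 and 5864. *Id3*, which has no DNA-binding domain and blocks basic helix-loop-helix factors, rose 18-fold from 67.5, 54.9, 83.0 and 87.2 to 1080, 1296, 1408 and 1526.

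Within AP-1, Fos and Jun proteins pair to form the active dimer, and their genes did not move together. *Fosl2* rose from 577, 493, 489 and 505 to 26031, 25472, 21471 and 20902, and *Fos* from 570, 670, 617 and 476 to 10114, 11876, 10263 and 8650. *Junb* rose from 1034, 1357, 1155 and 1374 to 10462, 13424, 14369 and 16854. *Jun* fell from 1397, 1541, 1345 and 1462 to 428, 344, 428 and 330 (log2 fold change -1.90 ± 0.12, adjusted p = 1.59e-08). *Fos* and *Junb* were also named after their values were seen. In normalized counts per kilobase of exon, a level that can be compared between genes, *Junb* (535), *Jund* (473) and *Jun* (450) were alike in untreated cells. At 1 h *Junb* stood at 5987, *Jund*, named after its values were seen, at 738 and *Jun* at 120. The Fos family was led on this scale by *Fos* (248) before treatment and by *Fos* (4348), *Fosl2* (2424) and *Fosb* (1369) after it.

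Beside *Jun*, 5 members of the transcription factor list fell at least 2-fold. *Irf4*, an interferon regulatory factor that acts in alternative activation of macrophages, fell from 271, 490, 348 and 518 to 19.5, 47.3, 22.6 and 51.3 (11.6-fold). *Egr2*, a zinc finger factor linked to the same state, fell from 405, 288, 242 and 291 to 20.6, 18, 40.2 and 28.7 (11.3-fold). *Hlx*, a homeobox factor, fell from 1008, 1325, 953 and 1085 to 286, 405, 359 and 475. The groups did not overlap for any of them. *Prdm1*, a transcriptional repressor, fell 2.27-fold, and *Etv3*, an ETS family repressor named after its values were seen, had a log2 fold change of -1.15. Of 24 members of the NF-kB, NFAT, IRF and STAT families, *Irf4* was the only one to change at least 2-fold.

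Of 313 kinases tested, 46 (14.7%) were higher and 33 (10.5%) lower at an adjusted p under 0.05, against 10% and 10.1% of all genes tested, and scaling by library size alone gave 54 lower. The 12 rises and 3 falls of at least 2-fold included 6 rises and 1 fall among the 32 CAMK kinases and tribbles pseudokinases tested. Beside *Sik1*, these included *Trib1*, a pseudokinase that directs proteins such as C/EBP factors to degradation, which rose from 213, 330, 230 and 320 to 2231, 2104, 1816 and 1700 (7.25-fold). *Pim1*, a constitutively active survival kinase, rose from 709, 740, 766 and 699 to 5146, 5352, 4414 and 4724 (6.74-fold). *Stk17b*, a death-associated protein kinase relative, rose from 1409, 1406, 1626 and 1510 to 7720, 8018, 6932 and 6790 (4.95-fold). Untreated and 1 h libraries of each of these did not overlap. The AMPK-related pair of NUAK kinases split, as *Nuak1* fell from 400, 556, 345 and 549 to 107, 133, 166 and 159, while *Nuak2*, named after its values were seen, rose from 907, 973, 892 and 889 to 3439, 3714, 3538 and 3530.

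In other kinase groups, *Plk3*, a polo-like kinase of the stress response, rose from 34.6, 40.2, 33.8 and 32.3 to 251, 240, 220 and 180. *Sgk1*, a serum- and glucocorticoid-induced kinase, rose 3.63-fold, and *Itpkb*, which converts inositol trisphosphate to its tetrakisphosphate, rose 2.44-fold. Among 51 members of MAP kinase cascades the single change of at least 2-fold was a fall. It concerned *Map3k8*, the kinase that activates the ERK pathway downstream of Toll-like receptors, which went from 718, 792, 767 and 705 to 223, 220, 253 and 258 (log2 fold change -1.64 ± 0.08, adjusted p = 8.95e-10). None of 35 tyrosine kinases and none of 48 innate immune, stress and death kinases changed at least 2-fold. At an adjusted p under 0.05, 6 members of each group were higher (17.1% and 12.5%) and 4 lower (11.4% and 8.33%). Of all genes tested, 10% were higher and 10.1% lower. The extremes were 0.80 and -0.41 on the log2 scale over both kinase groups.

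**Figure D3:**
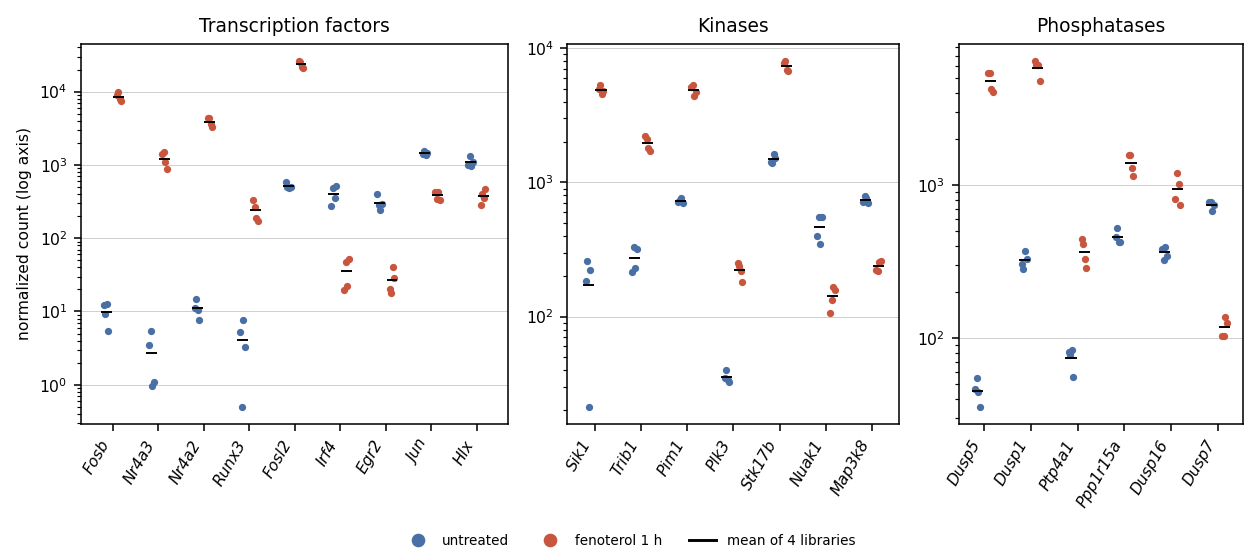
Normalized counts per library (log axis) of the transcription factors, kinases and phosphatases with the largest changes, with 4 untreated libraries in blue, 4 fenoterol libraries in red, a line at each mean and values under 0.5 drawn at 0.5. Blue and red points do not overlap for any gene, and the low *Sik1* point is the untreated library of mouse 3 at 21.2.

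Phosphatases include the dual-specificity enzymes that oppose MAP kinases. Of 145 phosphatases tested, 22 (15.2%) were higher and 19 (13.1%) lower at an adjusted p under 0.05, against 10% and 10.1% of all genes tested. At least 2-fold changes were 8 rises (5.52%) and 1 fall (0.69%), against 2.97% and 0.953% of all genes tested. Of these, 5 rises and the fall were in the group of 31 dual-specificity phosphatases. *Dusp5*, a nuclear phosphatase of ERK, rose from 46.8, 54.9, 44.4 and 35.5 to 5383, 5365, 4236 and 4038 (105-fold, log2 fold change 6.72 ± 0.19, adjusted p = 5.21e-12). *Dusp1*, which acts on p38 and JNK, rose from 306, 284, 370 and 327 to 6447, 6054, 6085 and 4781, and *Dusp16*, which prefers JNK, from 383, 326, 396 and 346 to 811, 1200, 1023 and 741. *Dusp7*, a cytoplasmic phosphatase of ERK, fell from 771, 776, 680 and 735 to 104, 102, 138 and 126 (log2 fold change -2.65 ± 0.11, adjusted p = 1.2e-10). The direction of change therefore differed between members with a like substrate, since *Dusp5* and *Dusp7* both act on ERK. *Dusp6*, the closest relative of *Dusp7*, was lower by 0.58 on the log2 scale (adjusted p = 0.00388), and *Dusp2* was higher by 0.92 (adjusted p = 0.00691), both named after their values were seen. *Dusp4*, named likewise, was lower by 0.86 (adjusted p = 0.0267), a call lost without the untreated library of mouse 1 (0.103) or 3 (0.0528) and without the 1 h library of mouse 2 (0.0762), 3 (0.0606) or 4 (0.0516).

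*Ptp4a1*, a small prenylated phosphatase counted in the same group, rose from 81.4, 77.7, 83.0 and 56.0 to 444, 409, 328 and 286. A second annotated entry of that symbol covers 70.8% of its exons and holds 0 counts. Outside that group, *Ppp1r15a*, which guides protein phosphatase 1 to the translation factor eIF2 alpha, rose from 458, 523, 426 and 426 to 1574, 1567, 1293 and 1151. *Lpin2*, a phosphatidate phosphatase, rose 2.04-fold. No member of the 26 protein tyrosine phosphatases changed at least 2-fold. At an adjusted p under 0.05, 1 (3.85%) was higher and 4 (15.4%) lower, against 10% and 10.1% of all genes tested.

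Promoters were searched because CREB acts through a defined element. Windows of 300 bases around annotated starts (250 before, 50 after), taken from RefSeq on build GRCm38.p6, were matched by symbol to 9463 of the 12385 symbols tested, including 264 of the genes that rose and 86 that fell at least 2-fold. The full palindromic CRE, TGACGTCA, was held by 3.79% of matched rises, 3.49% of falls and 3.6% of all genes tested. Its core TGACG, searched on both strands and contained in the full element, was held by 45.8%, 24.4% and 35.9%. Of the matched rises, the core was held by 15 of 23 transcription factors (65.2%), 6 of 7 phosphatases (85.7%), 3 of 9 kinases (33.3%), 3 of 16 receptors (18.8%) and 2 of 8 secreted factors (25%). The AP-1 element (TGACTCA or TGAGTCA) was held by 9.47% of rises, 2.33% of falls and 4.55% of all. For the CArG box, bound by serum response factor, the shares were 1.52%, 1.16% and 1.49%, and for the NF-kB site they were 15.2%, 5.81% and 12.1%. These shares describe letters in a window and were not tested. Among the most changed transcription factors, kinases and phosphatases with a matched window, the phosphatase genes *Dusp1* and *Ppp1r15a* held a full CRE, and their windows are printed because they show where it lies. Capitals mark the full CRE, both sequences are of the minus strand, and the element begins at position -143 relative to the start in *Dusp1* (chr17:26508423-26508722) and at -12 in *Ppp1r15a* (chr7:45526219-45526518).
Dusp1: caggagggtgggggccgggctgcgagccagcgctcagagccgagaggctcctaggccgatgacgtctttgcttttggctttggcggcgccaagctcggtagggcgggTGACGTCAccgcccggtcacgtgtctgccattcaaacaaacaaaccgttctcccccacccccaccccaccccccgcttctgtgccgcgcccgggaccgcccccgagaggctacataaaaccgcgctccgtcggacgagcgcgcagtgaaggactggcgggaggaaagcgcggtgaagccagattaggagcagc
Ppp1r15a: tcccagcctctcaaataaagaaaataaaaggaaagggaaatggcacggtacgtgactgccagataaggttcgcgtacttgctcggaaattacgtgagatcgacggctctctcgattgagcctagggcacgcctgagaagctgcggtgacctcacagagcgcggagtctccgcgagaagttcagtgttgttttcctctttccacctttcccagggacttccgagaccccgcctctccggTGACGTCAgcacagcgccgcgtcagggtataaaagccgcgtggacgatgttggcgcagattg

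Receptors answered in both directions. Of 296 tested, 55 (18.6%) were higher and 36 (12.2%) lower at an adjusted p under 0.05, against 10% and 10.1% of all genes tested. At least 2-fold changes were 17 rises (5.74%) and 8 falls (2.70%). Among receptors that couple to Gs, *Adora2b*, the low-affinity adenosine receptor, rose from 36.4, 24.1, 33.8 and 45.2 to 1022, 1003, 861 and 1007 (27.5-fold), while both prostaglandin E2 receptors of this class fell. *Ptger4* fell from 558, 824, 654 and 873 to 126, 167, 141 and 145 (5.02-fold), and *Ptger2*, named after its values were seen, from 280, 359, 215 and 372 to 94.5, 123, 118 and 135 (2.60-fold). The groups of all 3 receptors were separate. Genes on the opposite strand cover 16.5% of the exons of *Ptger4* and hold 4870 counts, against 3304 of its own, and the strand option of the counting is not stated.

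Among 51 pattern recognition and scavenger receptors, 5 rose and 1 fell at least 2-fold, and among 52 Fc, immunoglobulin-like and inhibitory receptors 1 rose. That gene, *Trem1*, which amplifies inflammatory signals, rose from 7.79, 1.34, 7.72 and 6.46 to 271, 230, 240 and 155. *Il1r2*, a decoy that binds interleukin-1 without signaling, rose from 4.33, 9.38, 2.89 and 6.46 to 99.7, 90.1, 86.3 and 67.7. The lipopolysaccharide co-receptor *Cd14*, named after its values were seen, rose from 12537, 12382, 14541 and 11842 to 71128, 71263, 64379 and 61272, so that a marker gene of macrophages was itself part of the response. Its signaling partner *Tlr4*, also named after its values were seen, fell from 2155, 1774, 2393 and 1859 to 1250, 1198, 1251 and 1058 (log2 fold change -0.78 ± 0.10, adjusted p = 3.14e-05). *Plaur*, the urokinase receptor, rose 7.95-fold from 554, 440, 518 and 491 to 4143, 4129, 3609 and 4086. *Ccrl2*, which binds chemerin without signaling, rose 7.97-fold from 468, 489, 533 and 498 to 4417, 4159, 4163 and 3112. *Gpr35*, an orphan G protein-coupled receptor, rose from 18.2, 13.4, 10.6 and 20.5 to 293, 351, 267 and 177.

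Further falls were of receptors for nucleotides, lipids and lectin ligands. *P2ry1*, an ADP receptor, fell from 147, 137, 143 and 121 to 40.1, 54.0, 31.4 and 29.7. *Clec2i*, a C-type lectin, fell from 266, 283, 181 and 325 to 82.2, 87.8, 60.8 and 77.9. *Relt*, of the tumour necrosis factor receptor family, fell 2.90-fold. *Ptafr*, the receptor for platelet-activating factor and named after its values were seen, was the most abundant of these and fell 2.49-fold from 9810, 9840, 9534 and 9243 to 3885, 3744, 4149 and 3668. Among 57 cytokine and growth factor receptors there were 2 rises and no fall of at least 2-fold. At an adjusted p under 0.05, 9 (15.8%) were higher and 5 (8.77%) lower, against 10% and 10.1% of all genes tested.

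Secreted factors formed a mixed set. Of 213 tested, 28 (13.15%) were higher and 10 (4.7%) lower at an adjusted p under 0.05, against 10% and 10.1% of all genes tested. At least 2-fold changes were 15 rises (7.04%) and 6 falls (2.82%). With mouse as a block, 43 were higher and 17 lower at an adjusted p under 0.05. *Thbs1*, the matricellular protein thrombospondin-1, rose from 2078, 2098, 1632 and 1414 to 149398, 160378, 119304 and 124141 (76.6-fold). *Tnfaip6*, a hyaluronan-binding protein of inflamed tissue, had 1 count over the 4 untreated libraries together and 792 over the 4 fenoterol libraries, 137 to 268 in each. The ratio was 794, with an exact 95% interval of 142 to 3.14e+04 that covers counting error only.

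Among cytokines and growth factors, *Il1b*, the pro-inflammatory interleukin-1 beta, rose from 55.4, 113, 50.2 and 60.3 to 1762, 2113, 1338 and 1457 (24.7-fold). *Vegfa*, the angiogenic growth factor, rose from 968, 1171, 550 and 885 to 13680, 14319, 10357 and 11974 (14.1-fold), and *Tgfb3*, a TGF-beta ligand, from 37.2, 42.9, 28.0 and 28.0 to 532, 597, 512 and 380 (14.9-fold). A rise in all 4 mice was a condition for naming these genes. *Plat*, the tissue plasminogen activator, was scarce, with 0 to 4.02 untreated and 54.5, 15.8, 34.3 and 35.9 at 1 h. The falls were led by 2 chemokines that recruit monocytes and T cells. *Ccl3* fell from 992, 816, 949 and 645 to 80.1, 66.4, 66.7 and 57.4 (12.6-fold), and its neighbour *Ccl4* from 417, 348, 543 and 351 to 60.6, 55.2, 86.3 and 68.7 (6.11-fold). These were the only changes of at least 2-fold among 21 chemokines. *Pdgfb*, a platelet-derived growth factor chain, fell from 1179, 1436, 1086 and 1570 to 382, 438, 437 and 550, and *Angptl4*, an inhibitor of lipoprotein lipase, from 106, 114, 64.6 and 90.4 to 44.2, 32.6, 20.6 and 28.7. None of 33 complement, lipid-binding and host defence genes passed the edgeR test, 1 passed in DESeq2 and 0 in limma-voom. Of these genes 1 had an unadjusted p under 0.05 in edgeR, and log2 fold changes ranged from -0.79 to 0.48. These fits ignored the pairing by mouse, and this group was not counted with mouse as a block.

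**Figure D4:**
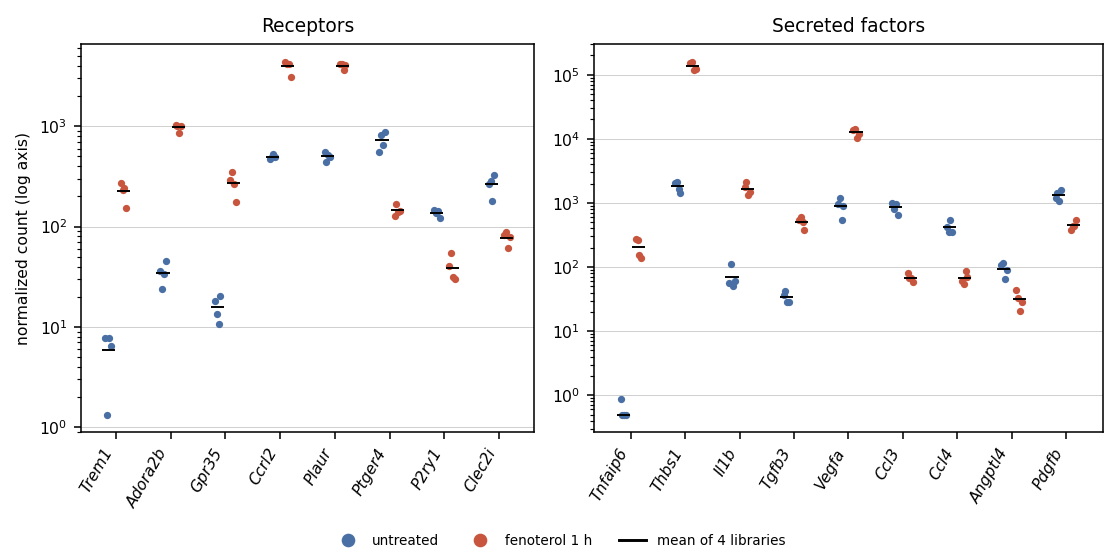
Normalized counts per library (log axis) of receptors and secreted factors named in the text, drawn for 4 untreated (blue) and 4 fenoterol libraries (red) with a line at each mean and values and means under 0.5 drawn at 0.5. Red lies above blue for 5 genes and below it for the others in each panel, with no overlap.

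Signalling inhibitors and mRNA regulators held the largest share of rises of the 9 lists, with 28 rises and 9 falls (5.56%) of at least 2-fold. At an adjusted p under 0.05, 49 of 162 (30.25%) were higher and 28 (17.28%) lower, against 10% and 10.1% of all genes tested. Early-response and growth arrest genes held 11 of these rises among 36 tested. *Btg2*, an antiproliferative gene, rose from 1323, 1305, 1189 and 1232 to 10408, 12238, 10180 and 9800 (8.44-fold), and the circadian repressor *Per1* from 859, 808, 859 and 826 to 4510, 5444, 4933 and 5122 (5.96-fold). *Phlda1*, a pleckstrin homology domain protein, rose from 12.1, 18.8, 4.82 and 6.46 to 208, 203, 211 and 204, and *Hilpda*, an inhibitor of adipose triglyceride lipase, from 80.5, 104, 113 and 86.1 to 1556, 1196, 1223 and 1042. Untreated and 1 h libraries of these genes did not overlap, while the untreated values of *Phlda1* and the 1 h values of *Hilpda* varied between mice. *Cytip*, which binds cytohesins and reduces adhesion, rose 19.6-fold from 398, 407, 425 and 394 to 8290, 9061, 6755 and 7767. *Nfkbie*, an inhibitor of NF-kB, rose 3.19-fold, and *Zfp36*, which directs AU-rich cytokine mRNAs to decay, rose 2.74-fold from 3068, 4115, 3441 and 3378 to 8999, 10343, 9013 and 9957.

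Of the 9 falls, 4 were early-response and growth arrest genes, *Sesn1*, *Cited2*, *Gadd45a* and *Txnip*, the last named after its values were seen. *Sesn1*, a leucine sensor that restrains mTORC1, fell from 8885, 10237, 8296 and 9858 to 3012, 3292, 2809 and 3457. *Cited2*, which competes for the coactivators CBP and p300, fell from 1061, 1344, 1110 and 1158 to 321, 319, 356 and 356. *Gadd45a*, a growth arrest gene, fell from 559, 500, 438 and 460 to 117, 87.8, 94.1 and 102, although its antisense neighbour covers 19.1% of its exons with 229 counts against 2288. Among the inhibitors of cytokine and receptor signalling, *Socs6*, of the suppressor of cytokine signaling family, fell from 1437, 1164, 1436 and 1231 to 537, 444, 431 and 402. The groups of these genes did not overlap. *Zc3h12d*, an RNase-like regulator of cytokine mRNA, fell 2.75-fold from 1236, 1298, 1296 and 1176 to 413, 438, 532 and 437. Of 27 mRNA decay and RNA-binding regulators, 3 (11.1%) were higher and 5 (18.5%) lower at an adjusted p under 0.05, against 10% and 10.1% of all genes tested.

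Among channels and transporters, 28 of 161 (17.4%) were higher and 17 (10.6%) lower at an adjusted p under 0.05. The shares over all genes tested were 10% and 10.1%. At least 2-fold changes were 13 rises (8.07%) and 2 falls (1.24%). Solute carriers for sugars, lactate, amino acids and nucleosides gave 7 rises among 39, and those for ions, metals, organic anions and vitamins 4 among 47. In the latter group *Slc25a33*, a mitochondrial pyrimidine nucleotide carrier, rose from 39.8, 57.6, 50.2 and 38.8 to 1497, 1840, 1344 and 1386 (32.9-fold). In the former, *Slc16a3*, the lactate exporter MCT4, rose from 738, 764, 692 and 759 to 5800, 7330, 4858 and 5259, and *Slc2a1*, the glucose transporter GLUT1, from 673, 570, 558 and 599 to 2178, 1993, 1642 and 1623. Exporter and importer thus both rose, and the same direction in all 4 mice was a condition for naming them. *Lrrc8d*, a subunit of volume-regulated anion channels, rose 3.00-fold from 1177, 1061, 1101 and 1190 to 3644, 3659, 3090 and 3223, and *Kcna3*, a voltage-gated potassium channel, from 19.9, 36.2, 26.0 and 22.6 to 82.2, 91.2, 77.5 and 66.7. *Kcnj2*, an inwardly rectifying potassium channel that sets the resting potential, had the largest fall of any gene that met the minimum count, from 926, 648, 735 and 622 to 49.3, 68.7, 61.8 and 44.1 (log2 fold change -3.71 ± 0.17, adjusted p = 5.43e-10). *Abcd2*, a peroxisomal transporter of fatty acyl-CoA, fell from 636, 742, 527 and 679 to 261, 357, 267 and 268.

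Genes used to describe macrophage activation did not move as a block. Of 16 genes of classical activation, 1 rose and 2 fell at least 2-fold (*Il1b* and *Ccl3* and *Ccl4*). Of 13 genes of alternative activation, 3 rose and 2 fell. The rises were *Klf4*, from 193, 196, 157 and 251 to 2731, 2587, 2401 and 2089, *Tgm2*, from 1325, 1176, 1598 and 1163 to 10780, 9562, 10002 and 8420, and *Myc*, from 65.8, 53.6, 55.0 and 70.0 to 173, 136, 151 and 137. Genes on the opposite strand cover 21.8% of the exons of *Tgm2* and hold 5337 counts, against 42542 of its own. The falls were *Irf4* and *Egr2*. Both lists thus contained members that changed in each direction. None of 22 interferon-stimulated genes passed the edgeR, DESeq2 or limma-voom test. Of these genes 1 had an unadjusted p under 0.05 in edgeR, and log2 fold changes ranged from -0.33 to 0.72. These fits ignored the pairing by mouse, and the group was not counted in the fit with mouse as a block.

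The falls were the smaller set. Of the 118, 79 were in none of the function lists, 44 had a mean of under 50 normalized counts, and 22 were not annotated as protein-coding. For the 368 rises these numbers were 244, 98 and 35. Over all 12386 genes tested, the lists hold 1591, and 1004 were not annotated as protein-coding. The genes that follow were in no list and among the 15 largest falls of genes with a mean of at least 50 normalized counts. *Cdc42ep3*, an effector of the GTPase CDC42, fell from 768, 685, 737 and 781 to 195, 168, 161 and 210. *Rubcnl*, a regulator of autophagosome maturation, fell from 214, 323, 256 and 268 to 87.3, 61.9, 72.6 and 85.1. *Ankrd37*, an ankyrin repeat gene, fell from 110, 99.2, 82.0 and 142 to 38.0, 20.3, 24.5 and 35.9. Of its exons, 26.4% lie opposite to other genes that hold 7869 counts, against 533 of its own. Of the protein-coding genes that fell at least 2-fold, 27 of 96 (28.1%) have transcripts of at most 2 exons, compared with 38 of 333 rises (11.4%) and 601 of 11382 genes tested (5.28%). The median exon number was 4.5 for falls, 6 for rises and 9 for all genes tested, and the median gene span 12.0 kb, 20.2 kb and 24.2 kb. Median untreated levels of falls and rises were alike, at 186 and 194 normalized counts, and below the 457 of all genes tested. The lower quartiles differed, at 35.8 for falls, 11.9 for rises and 108 for all genes tested. These figures are descriptive and were not tested.

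**Figure D5:**
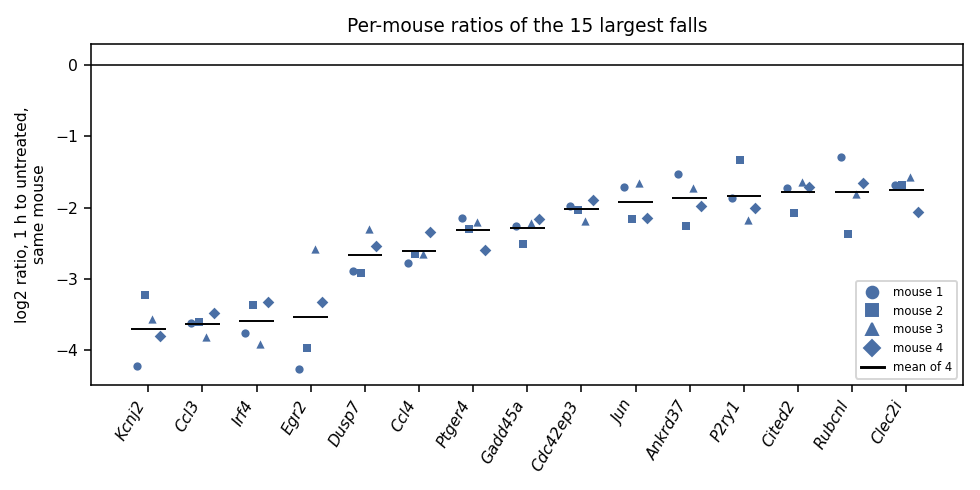
Log2 ratio of the 1 h to the untreated library of the same mouse (vertical axis, with 0.5 added to the counts) for the 15 largest falls. These are ranked among genes with a mean of at least 50 normalized counts, with 1 symbol per mouse and a line at the mean of 4. All points lie below 0, since only genes that fell in all 4 mice were drawn, and *Kcnj2*, *Ccl3*, *Irf4* and *Egr2* have the lowest means.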

How the data were processed

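RNA was measured in BMDMs of 4 mice, left untreated or treated with fenoterol. Per the labels and methods, the authors made stranded mRNA libraries, mapped reads to GRCm38 with TopHat2 2.0.11 and counted them per gene with HTSeq 0.8.0. The deposited values are raw counts by Ensembl identifier. How strand was treated in counting, and which annotation was used, is not given in the sources used here, and no column was left unused (0). The authors' vsn and limma steps were not repeated, since raw counts call for a count test.

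From the counts, edgeR 4.0.16 in R 4.3.3 was run as a quasi-likelihood test over all 12 libraries with a mean per group, filterByExpr and TMM scaling, on 12386 genes, with Benjamini-Hochberg adjustment. The biological coefficient of variation was 0.112. Errors are SE of the log2 fold change. Normalized counts are scaled to the mean library size. Values are listed in the order of mice 1 to 4, and untreated before 1 h where both are given. Symbols, exons and overlaps came from GENCODE M21, matched to 12375 tested genes. The function lists hold 1950 genes, and members, lists and rules were chosen with earlier results of these data known. Genes named had an adjusted p under 0.05, at least 2-fold change, a mean of at least 50 normalized counts and the same direction in 4 mice. They were the 5 largest rises and 4 largest falls of each list and the 15 largest falls overall. Members of the cAMP pathway were named freely, and a group with none so named gave its largest called rise and fall. Genes named after their values were seen are marked, and the macrophage markers *Csf1r*, *Mrc1* and *Mertk* were named outside the rule. For 1 gene, results are not reported here.

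Per the labels each mouse number marks 1 animal in every group. Deviations from the group means of its libraries correlated with r of 0.364 to 0.561 over genes (4 pairs), and those of different mice with -0.300 to 0.0849 (12 pairs). Deviations cancel out over the 4 libraries of a group, so a positive r within mice forces negative values between mice on average. The latter are therefore not an independent baseline. Alternatives were DESeq2 1.42.0, limma-voom (limma 3.58.1), RLE scaling, library size only, no filter, the 2 groups alone, mouse as a block and each library left out. On simulated counts for this comparison (12126 genes, 200 changed), edgeR recovered 160 with 6 false calls. Those counts were drawn from the untreated means without an effect of the mouse and with far fewer changed genes than were called here. The simulation therefore does not show how the fit behaves on libraries that share a mouse. Figures were drawn with matplotlib 3.10.9. The replicates are separate mice, and the spread between them exceeded counting error (chi-square per degree of freedom 9.13 to 18.7).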

Additional observations from a re-analysis of the deposited data

Results flagged for a closer look

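Among 228 sets of 4 libraries, 1 for each gene followed and group, 7 had 1 library far from the other 3 by Dixon's criterion, where chance gives about 1 in 20 (11.4). *Adora2b* read 861 in the 1 h library of mouse 3 against 1003 to 1022 in the others, and *Plaur* read 3609 there against 4086 to 4143. *Prkar2a* read 2492 in the 1 h library of mouse 2 against 1943 to 2000, and *Abcd2* read 357 there against 261 to 268. *Il1b* read 113 in the untreated library of mouse 2 against 50.2 to 60.3, and *Rgs3* read 95.1 there against 57.1 to 63.2. *Tnfaip6* read 0.866 in the untreated library of mouse 1, a single count, and 0 in the others. Without the library concerned, the log2 fold changes were 4.84 for *Adora2b*, 3.04 for *Plaur*, 0.84 for *Prkar2a*, -1.28 for *Abcd2*, 4.91 for *Il1b* and -2.46 for *Rgs3*, and that of *Tnfaip6* went from 9.08 to 10.67, a fitted value that has no counts in the untreated group behind it and is no bound. Each gene still passed with an adjusted p of at most 0.000551.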

How the results depend on the processing

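Counts at 2-fold, counts over all genes and single genes were recomputed under 15 alternatives, list counts at any size under library size only and the mouse block, and promoter shares, exon numbers and counts of smaller groups under none. For the numbers of genes and of list members, 390 of 396 values were within 1.5 times the reported ones. With library size only, lower genes numbered 1969 in place of 1251, lower kinases 54 in place of 33 and lower cAMP pathway members 17 in place of 11. With mouse as a replicate block, which uses the pairing of the libraries, 3348 genes passed in place of 2493, of which 2490 passed in both fits, and 43 secreted factors were higher and 17 lower in place of 28 and 10. The block moved no other count by over 1.5 times and ended the call of none of the 107 genes that passed and were followed. Leaving out each library gave 468 to 508 genes changed at least 2-fold and 3 to 5 cAMP pathway falls of that size. Of these 107 genes, 102 kept their call under every alternative computed for them. The exceptions were *Crtc1*, *Pde4a*, *Rgs16*, *Dusp4* and *Mertk*. None of the 107 changed direction. Among genes that did not pass, library size alone turned the log2 fold change of *Gnas* to -0.0038, of *Adcy7* to -0.0163, of *Prkaca* to -0.036 and of *Prkacb* to -0.0376, and it gave *Creb1* an adjusted p of 0.0381. The causes were not tested. Counts of a few per library limit the size of the rises of *Nr4a3*, *Runx3*, *Trem1*, *Il1r2*, *Plat* and *Tnfaip6*. Without a low-count filter 530 genes changed at least 2-fold, and the tools DESeq2, limma-voom and RLE scaling gave 482, 485 and 482. A fit without the 4 h libraries gave 453, and 2325 genes passed in it in place of 2493.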
